A study of Mus musculus with 8 samples.

Results

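The small nucleolar and nuclear RNA genes were taken as every probe set whose platform gene symbols all begin with Snora, Snord, Scarna or Rnu followed by a digit. The rule used names and no measured value, and it found 80 of the 23410 probe sets that carry a gene symbol. They stand for 68 genes. By class there were 35 Snord, 23 Snora, 4 Scarna and 18 Rnu probe sets. Several probe sets for one repeated gene held identical values on every array, so the 80 probe sets held 67 distinct profiles of values. The 18 Rnu probe sets held 9 profiles. Those named for the U1 copies Rnu1b1, Rnu1b2 and Rnu1b6 included groups of 3 and of 5 with identical values. The 4 named for the U3 copies Rnu3b1 to Rnu3b4 were identical too. A further 46 probe sets matched with some of their symbols only, for example a guide RNA together with its host gene, and were not members.

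RNA was measured on 8 Affymetrix arrays from marrow cells of C57BL/6J mice sorted by flow cytometry. The KLS gate (Kit-positive, lineage-negative, Sca-1-positive) takes in stem cells and early progenitors, and the MEP gate takes progenitors of megakaryocytes and red cells. TG arrays came from mice labelled ∆Hmga2 and WT arrays from wild-type mice, with 2 arrays in each of WT KLS, TG KLS, WT MEP and TG MEP. Each array carried an RNA preparation of its own from a pool of 4 or 6 mice, so the replicate spread is that between pools. The series is titled for HMGA2 overexpression, and the sources used here do not say what drives the ∆Hmga2 allele, how it was made or how old the mice were.

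Box C/D RNAs (Snord) guide 2′-O-methylation of ribosomal and spliceosomal RNA, and box H/ACA RNAs (Snora) guide the change of uridine to pseudouridine. Scarna RNAs carry the same boxes and act on spliceosomal RNAs in Cajal bodies, while the Rnu genes encode U1, U5, U6 and U12 of the spliceosome, U7 of histone mRNA processing and the U3 RNA of ribosome assembly. Most guide RNAs of vertebrates are cut from introns of longer transcripts, many of which encode ribosomal proteins or have no protein product.

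On the log2 scale the values of Hmga2 (probe set 10372796) were 6.85 and 7.12 in WT KLS, 7.35 and 7.11 in TG KLS, 6.70 and 6.74 in WT MEP and 6.95 and 6.99 in TG MEP cells. TG minus WT was 0.25 in KLS and 0.25 in MEP cells, with an adjusted p of 1.00 in limma for each. The arrays overlapped in KLS cells and did not in MEP cells, and no source used here says whether the probes lie in the part that ∆Hmga2 keeps. Of the markers of the sorted cells, the 6 measured KLS genes averaged 8.59 to 8.89 on KLS and 6.72 to 7.58 on MEP arrays. The mean of 7 MEP genes was 8.61 to 8.78 on KLS and 8.80 to 8.90 on MEP arrays, and among them Gata1 was 0.50 and Tfrc 0.56 lower in KLS cells with limma adjusted p of 0.0901 and 0.0755. Of the 7, 5 were below 0 and 2 above it in KLS minus MEP, and Itga2b, the megakaryocyte integrin, was at 0.27 with an adjusted p of 0.343. Granulocyte and monocyte markers (10 of 10 measured) averaged 10.39 to 10.95 on KLS and 8.20 to 9.41 on MEP arrays. The 9 lymphoid markers averaged 8.46 on WT MEP 1 against 6.59 to 6.77 on the other MEP arrays, so WT MEP 1 stood apart, and their part in the results below was not tested.

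Of the 56 Snord, Snora and Scarna genes among the members, 55 lie within the span of another gene in the RefSeq table. For 41 the surrounding gene was protein-coding, in 21 cases a ribosomal protein gene, and for 14 it was a non-coding transcript only. Host genes of snoRNAs are known for transcripts that begin with a run of pyrimidines, the feature through which growth signals control translation of ribosomal protein mRNAs. The windows below run from 15 bases before to 15 after the annotated start for hosts of 15 of the guide RNAs described in the results, as given by RefSeq for GRCm38.p6 and read on the host's own strand. Capitals mark each run of at least 6 consecutive C or T bases on that strand.

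Gm36220, host of Snord104, chr11:106500900-106500929, plus strand: cacgtccattccggCCTCTTatcgacgggg
Tcp1, host of Snora20, chr17:12916314-12916343, plus strand: gcagCCCCCTacttccggcgttttcagttt
Rpl39, host of Snora69, chrX:37085208-37085237, minus strand: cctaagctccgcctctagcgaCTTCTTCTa
Rps12, host of Snora33, chr10:23787195-23787224, minus strand: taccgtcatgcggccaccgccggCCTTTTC
Snhg1, host of Snord22, chr19:8723472-8723501, plus strand: gttgttcttgtcggcctcaTTTTTCCTTgt
Rpl4, host of Snord16a, chr9:64173372-64173401, plus strand: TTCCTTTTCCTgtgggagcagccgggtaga
Rack1, host of Snord96a, chr11:48800345-48800374, plus strand: cggaggccgCTCTTTCTTTTTCTCCacagg
Snhg12, host of Snora44, chr4:132308663-132308692, plus strand: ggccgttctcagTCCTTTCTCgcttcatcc
Rbmx, host of Snord61, chrX:57393022-57393051, minus strand: cttaatttccatccgggTTCTTCagcctcg
Eef1b2, host of Snora41, chr1:63176816-63176845, plus strand: tggacctgcagttccgccggaagtagccga
Rpsa, host of Snora62, chr9:120127751-120127780, plus strand: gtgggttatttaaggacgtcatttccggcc
Rps3a1, host of Snord73a, chr3:86142654-86142683, minus strand: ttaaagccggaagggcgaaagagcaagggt
Rps3, host of Snord15a, chr7:99483695-99483724, minus strand: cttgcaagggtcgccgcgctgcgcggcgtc
Tpt1, host of Snora31, chr14:75845241-75845270, plus strand: gtcaccgctgacgacagttccgggggagcc
Snhg3, host of Snora73b, chr4:132353672-132353701, minus strand: tagtcgaccacgcctgacttccgggcgtta

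Such a run was present in 20 of the 36 windows of 34 hosts, which is 55.6%, against 29.2% of all 32851 windows in the table. Of the 15 hosts shown 9 had a run, and Eef1b2, Rpsa, Rps3a1, Rps3, Tpt1 and Snhg3 had none. The window of Rack1, which encodes a scaffold protein of the ribosome's small subunit, held a run of 16 bases. A match describes the letters only, at any place in the window. The runs of Rpl4 and Tcp1, for example, lie before the annotated start, and that of Rps12 lies past it. The counts thus do not give the share of transcripts that begin with a run, and the start of transcription was not measured here.

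Most members were read above the dim end of the array. Their mean over the 8 arrays ran from 2.34 to 12.14 with a median of 7.80, and 65 of 80 lay above 6.47, the median over all probe sets tested. A total of 7 members fell in the dimmest 30% of probe sets (means under 5.69), namely Rnu6, Rnu5g, Snord37, Snora2b, Snora16a and both probe sets of Snord58b, which left 73 above it. Brightness also depends on each probe's own sequence, so levels were not compared between members. Some were steady across the arrays, such as the H/ACA guide Snora3 within Rpl27a, whose probe sets read 10.47 to 10.89 and 10.54 to 10.94. A lower level in bulk RNA can mean fewer cells that hold the RNA or less of it per cell, and these cannot be told apart.

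The mean over all 80 members was 8.07 and 8.03 on the WT KLS arrays, 8.10 and 8.15 on TG KLS, 8.06 and 7.94 on WT MEP, and 7.96 and 8.24 on TG MEP. As group values these were 8.05 ± 0.03 in WT KLS, 8.12 ± 0.04 in TG KLS, 8.0 ± 0.08 in WT MEP and 8.10 ± 0.20 in TG MEP cells (SD, n = 2). All group means lay closer together than the replicates of TG MEP. Over all probe sets tested, the 8 array means ran from 6.78 to 6.85.

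The classes differed in this. Over the 18 Rnu probe sets the mean was 7.79 and 7.91 in WT KLS, 7.78 and 7.86 in TG KLS, 7.51 and 7.40 in WT MEP, and 7.57 and 7.38 in TG MEP cells. Every KLS array thus lay above every MEP array. With identical probe sets counted once the Rnu mean was 7.10 to 7.18 on KLS and 6.68 to 6.85 on MEP arrays. The Snora mean was 8.50, 8.39, 8.51 and 8.61 on the KLS arrays (WT 1, WT 2, TG 1, TG 2) and 8.56, 8.53, 8.56 and 8.88 on the MEP arrays in the same order, and the Snord mean was 7.85, 7.75, 7.91 and 7.91 on KLS and 7.95, 7.74, 7.72 and 8.20 on MEP arrays. In both snoRNA classes the highest array was TG MEP 2.

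**Figure D1:**
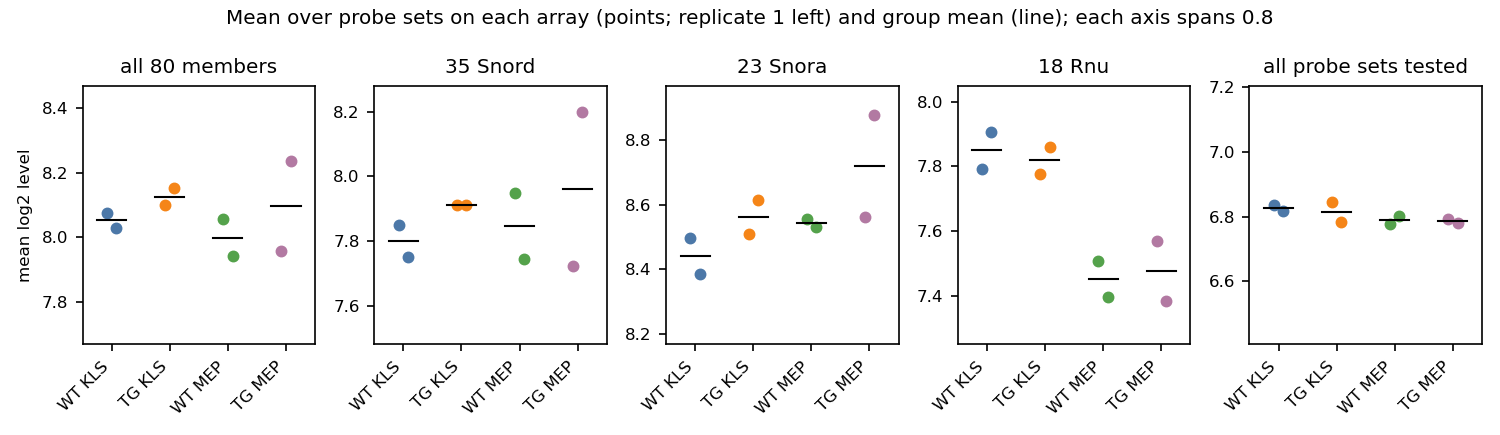
Mean log2 level over probe sets on each array, for all 80 members, the 35 Snord, 23 Snora and 18 Rnu probe sets and all probe sets tested; points are arrays (replicate 1 on the left), lines are group means and each vertical axis spans the same range. The Rnu points of KLS cells (7.78 to 7.91) lie above those of MEP cells (7.38 to 7.57), and TG MEP 2 is the top point for Snora (8.88) and Snord (8.20).

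TG MEP 2 was the highest of the 4 MEP arrays for 45 members, and for 43 of the 67 profiles, against 19.8% of all probe sets tested. It was the highest of all 8 arrays for 31 members, against 10.3% of all probe sets. Between the TG MEP replicates, 63 of 80 members read higher on TG MEP 2, as did 57.4% of all probe sets.

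Replicates of the members lay further apart than those of other probe sets. The median absolute difference between the 2 arrays of a group was 0.38 in WT KLS, 0.30 in TG KLS, 0.28 in WT MEP and 0.35 in TG MEP cells for the members, and 0.19, 0.17, 0.19 and 0.15 for all probe sets. The widest gap was that of Snora52, a box H/ACA RNA within Rplp2, with 9.27 and 7.39 in WT KLS cells. Snora30 read 8.26 and 9.70 in TG KLS cells, and the Rnu3b probe sets 10.12 and 8.78 in WT MEP cells.

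**Figure D2:**
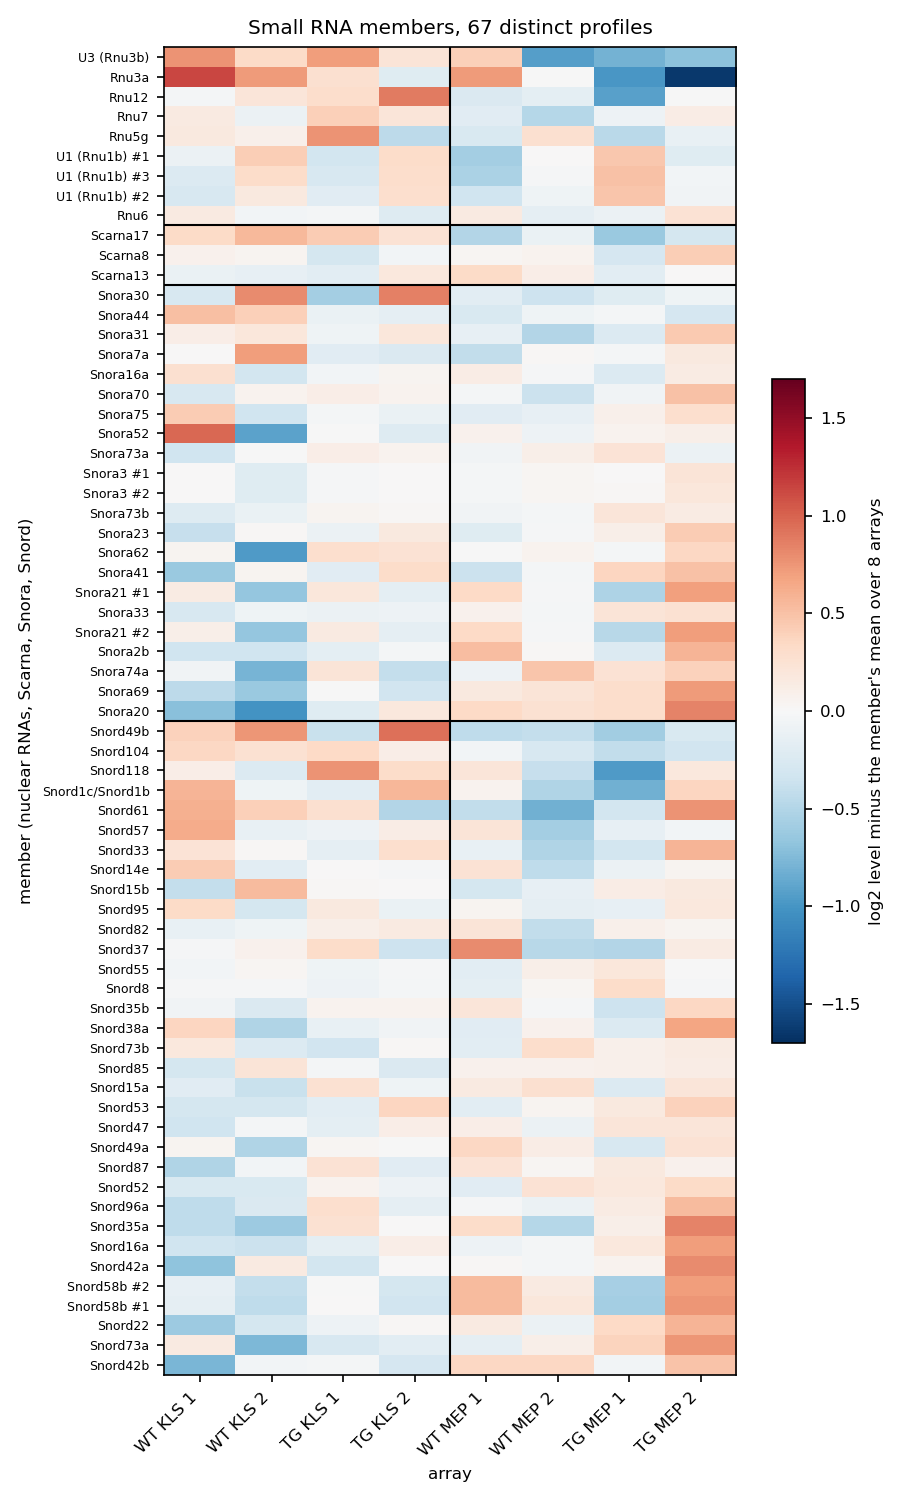
Log2 level of each of the 67 distinct profiles on the 8 arrays, minus its own mean over them (colour), with classes divided by horizontal lines and sorted by KLS minus MEP within a class; KLS arrays are left of the vertical line, and a number sign tells apart probe sets of one name whose values differ. The Scarna17 row is red on the left and blue on the right. The Rnu3a and Rnu3b rows are higher on the left on average, but a WT MEP array is red in both. A TG KLS array is blue for Rnu3a. The right-hand column (TG MEP 2) is red for most Snora and Snord rows. That array is the highest MEP array for 43 of the 67 profiles.

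KLS cells were first compared with MEP cells over both genotypes. None of the 80 members passed an adjusted p of 0.05 in limma, where 72 of all probe sets did (0.308%). The smallest adjusted p of a member was 0.0756. At an unadjusted p under 0.05 there were 19 members, or 23.8%, against 13.3% of all probe sets. Of these 12 were higher in KLS cells (7.44% of all probe sets were) and 7 lower (5.83%). Counted as distinct profiles these were 15 of 67, with 8 higher (11.9%) and 7 lower (10.4%), since several of the 12 were identical probe sets. The split of the 80 members moved with single arrays: it was 11 higher and 16 lower without TG MEP 1, and 18 higher and 3 lower without TG MEP 2. Arrays of the 2 cell types did not overlap for 6 members, or 7.5%, against 8.8% of all probe sets, with 3 higher (4.34% of all) and 3 lower (4.46%). The median difference was -0.02 over the members and 0.01 over all probe sets. Over the 67 distinct profiles it was -0.09, with 25 above 0 and 42 below.

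By class, 8 of the 9 Rnu profiles were higher in KLS cells, with a median difference of 0.29. The count was 6 to 8 of 9 when any 1 array was left out. Among the Snora profiles 18 of 22 were lower in KLS cells with a median of -0.12, and 13 of 22 without TG MEP 2, with a median of -0.06. Among the 33 Snord profiles 21 were lower, with a median of -0.18. Without TG MEP 2 it was 19 with a median of -0.10, and without WT KLS 2 it was 22 with a median of -0.08. Of all probe sets 52.6% were higher in KLS cells. These class counts carry no test.

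Among the members nearest the threshold were the U3 probe sets, those of Rnu3a and of Rnu3b. U3 is a box C/D RNA that guides no methylation and is needed for the early cleavages that release 18S rRNA. Rnu3a (probe set 10362674) read 11.64 and 11.22 in WT KLS, 10.78 and 10.30 in TG KLS, 11.23 and 10.5 in WT MEP, and 9.52 and 8.87 in TG MEP cells. Its KLS mean was 10.98 ± 0.58 and its MEP mean 10.03 ± 1.04 (SD, n = 4), a difference of 0.96 ± 0.23 (SE) or 1.94-fold, with a limma adjusted p of 0.121. The KLS and MEP arrays overlapped, because both WT MEP arrays read above the lower TG KLS array.

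The 4 Rnu3b probe sets, which hold the same values, read 10.49 and 10.04 in WT KLS, 10.43 and 9.94 in TG KLS, 10.12 and 8.78 in WT MEP, and 8.92 and 9.02 in TG MEP cells. KLS minus MEP was 1.01 ± 0.29 (SE), a 2.02-fold difference, and the limma adjusted p was 0.169. They were the only members at 2-fold or more in this comparison, a size that 1.26% of all probe sets reached. Of the MEP arrays only WT MEP 1 lay in the KLS range. Without it the difference was 1.35 with an adjusted p of 0.0265, so the 4 probe sets passed there.

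Scarna17, a small Cajal body RNA, was measured by a pair of probe sets of identical values (10459766 and 10461642). Its level was 10.54 and 10.76 in WT KLS, 10.64 and 10.46 in TG KLS, 9.72 and 10.10 in WT MEP, and 9.58 and 9.91 in TG MEP cells. All 4 KLS arrays lay above all 4 MEP arrays. The difference was 0.77 ± 0.13 (SE), 1.71-fold, with the adjusted p of 0.0756 in limma that was the smallest of any member. Scarna8 and Scarna13 were -0.11 and -0.13, and 0.06 and -0.08 without TG MEP 2.

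Snord104 (10382104), a box C/D guide within the non-coding Gm36220, read 12.49 and 12.40 in WT KLS, 12.47 and 12.25 in TG KLS, 12.09 and 11.87 in WT MEP, and 11.72 and 11.81 in TG MEP cells. The KLS arrays were again all above the MEP arrays. KLS minus MEP was 0.53 ± 0.10 (SE), 1.45-fold, with a limma adjusted p of 0.0853. It passed with a variance prior that follows intensity, at an adjusted p of 0.0338. Snord49b was 0.84 ± 0.27 (SE) higher in KLS cells with an adjusted p of 0.214, and its values overlapped, since TG KLS 1 read 9.70 and TG MEP 2 read 9.82. Without TG KLS 2 the difference was 0.52.

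Of the nuclear RNAs of the minor spliceosome and of histone mRNA processing, U12 (Rnu12), which pairs with the branch site of the rare U12-type introns, was 0.67 ± 0.22 (SE) higher in KLS cells with a limma adjusted p of 0.225. U7 (Rnu7), which pairs with the 3′ end of histone pre-mRNA, was 0.32 ± 0.12 (SE) higher with an adjusted p of 0.289. The U1 probe sets, for the RNA that recognises 5′ splice sites, held 3 profiles with differences of 0.00 to 0.16, each of which turned below 0 when some single array was left out. U5 (Rnu5g) and U6 (Rnu6) were among the dim members, with means of 3.25 and 2.34, and their differences were 0.29 and -0.07, or -0.02 without TG KLS 1 and 0.01 without TG MEP 2.

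Lower values in KLS cells were led by H/ACA guides. Snora20 (10441813), within the chaperonin gene Tcp1, read 6.45 and 6.16 in WT KLS, 6.97 and 7.34 in TG KLS, 7.51 and 7.43 in WT MEP, and 7.47 and 8.01 in TG MEP cells. Every KLS array was below every MEP array, with WT KLS lowest. KLS minus MEP was -0.87 ± 0.16 (SE), 1.83-fold lower, with a limma adjusted p of 0.0771.

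Snora69 (10604076), within the ribosomal protein gene Rpl39, had levels of 7.28 and 7.11 in WT KLS, 7.73 and 7.41 in TG KLS, 7.89 and 7.95 in WT MEP, and 8.03 and 8.45 in TG MEP cells. Here too the cell types did not overlap, and the order of the group means was that of Snora20. KLS minus MEP was -0.70 ± 0.13 (SE), with a limma adjusted p of 0.0809. Snora33, within Rps12, was -0.27 ± 0.09 (SE) with an adjusted p of 0.246, and its 4 KLS arrays (10.69 to 10.89) lay below its 4 MEP arrays (10.93 to 11.23).

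Snord22 (10461162) is the U22 RNA, a box C/D RNA of 18S rRNA maturation that is cut from introns of the non-coding Snhg1. Its level was 10.23 and 10.55 in WT KLS, 10.76 and 10.88 in TG KLS, 11.00 and 10.75 in WT MEP, and 11.20 and 11.43 in TG MEP cells. TG KLS and WT MEP arrays overlapped. KLS minus MEP was -0.49 ± 0.12 (SE) with a limma adjusted p of 0.127. The box C/D guides Snord42b, Snord73a and Snord16a, which lie in Rpl23a, Rps3a1 and Rpl4, were -0.57, -0.54 and -0.38, with limma adjusted p of 0.234, 0.308 and 0.266. Snord73a was -0.31 without WT KLS 2, and Snord16a -0.25 without TG MEP 2.

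**Figure D3:**
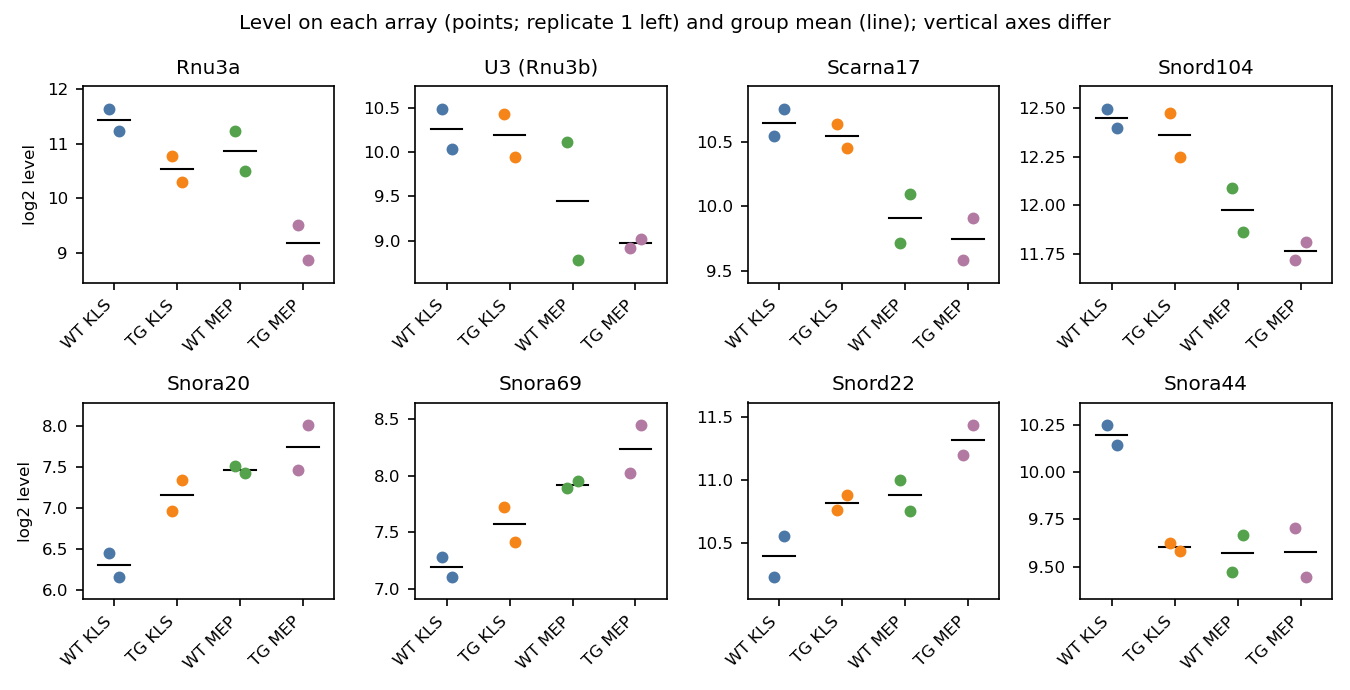
Log2 level of 8 members on each array (points, replicate 1 on the left) with the mean of each group (line); vertical axes differ between panels. Scarna17 and Snord104 are higher on all KLS arrays and Snora20 and Snora69 on all MEP arrays, Rnu3a is lower in TG than in WT cells of both types, and Snora44 is higher in WT KLS (10.25 and 10.15) than on the other 6 arrays (9.45 to 9.70).

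TG and WT cells were then compared within each cell type. In KLS cells none of the 80 members passed (0.0% of all probe sets did), and the smallest adjusted p in limma was 1.00. At an unadjusted p under 0.05 there were 5 members, or 6.25%, against 2.42% of all probe sets, of which 3 were higher in TG (1.48% of all) and 2 lower (0.94%). The arrays of TG and WT did not overlap for 25 members (31.2% against 28.2%), of which 19 were higher in TG (11.8% of all probe sets) and 6 lower (16.4%). The median difference was 0.05 over the members and -0.02 over all probe sets. For the members it was 0.09 with the values as deposited, 0.12 with each array centred on its median and 0.16 without TG KLS 1, the highest value with 1 array left out. Members above 0 numbered 43 of 80 after quantile scaling (46.1% of all probe sets were above 0), 55 with the values as deposited and 56 with each array centred on its median.

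In MEP cells also no member passed (0.0% of all probe sets), again with a smallest limma adjusted p of 1.00. An unadjusted p under 0.05 was found for 4 members, or 5.0%, against 3.36% of all probe sets, of which 3 were higher in TG (1.43% of all) and 1 lower (1.93%). The count was 10 higher and 1 lower without TG MEP 1 (13.8% of members, 0.957% of all probe sets), 3 and 7 without TG MEP 2 (12.5% and 8.25%), and 1 and 6 without WT MEP 2 (8.75% and 8.44%). TG and WT arrays did not overlap for 23 members (28.8% against 31.2%), of which 20 were higher in TG (14.6% of all probe sets) and 3 lower (16.6%). The median was 0.12 against -0.00 over all probe sets. It was 0.06 with the values as deposited, 0.03 with median centring, 0.04 without TG MEP 2, 0.23 without TG MEP 1 and 0.19 without WT MEP 1. Lymphoid markers had a median of -1.35 in this contrast and granulocyte and monocyte markers one of -0.77, and their part in the members' values was not tested.

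With both cell types together no member passed (0.0% of all probe sets), the smallest adjusted p in limma being 0.999. An unadjusted p under 0.05 was met by 12 members, or 15%, against 3.02% of all probe sets. Of these 10 were higher in TG (1.2% of all probe sets) and 2 lower (1.82%). Without TG MEP 2 there were 3 higher and 4 lower, or 8.75%, against 5.62% of all probe sets. The median of 0.11 over the members stood beside -0.01 over all probe sets, and without TG MEP 2 it was -0.03, so the direction of the median rested on that array. TG arrays lay to the same side of WT arrays without overlap in both cell types for 8 members, or 10%, against 4.85% of all probe sets. Rnu7, Snora69, Snora73b, Snord16a, Snord22, Snord53 and Snord96a were higher in TG (2.12% of all probe sets) and Rnu3a was lower (2.73%).

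Rnu3a had the widest difference between genotypes. From the levels given above, TG minus WT was -0.90 ± 0.32 (SE) in KLS cells and -1.67 ± 0.32 (SE) in MEP cells, that is 1.86-fold and 3.19-fold lower. Over both cell types it was -1.28 ± 0.23 (SE), with a 95% interval of -1.82 to -0.75 and a limma adjusted p of 0.999. The interval is not corrected for the number of probe sets or for the choice of Rnu3a among the members. In MEP cells Rnu3a was the only member at 2-fold or more, a size that 1.67% of all probe sets reached. Over both cell types, where 0.453% reached it, Rnu3a was again the only one. Leaving out WT MEP 1 gave -1.31 in MEP cells, and leaving out WT MEP 2 gave -2.04.

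The related Rnu3b probe sets, from the levels above, were -0.08 in TG KLS against WT KLS and -0.48 in MEP cells. In MEP cells the WT arrays (10.12 and 8.78) lay on both sides of the TG arrays. Without WT MEP 1 the MEP value was 0.19, and without WT MEP 2 it was -1.15. Both groups of probe sets are named for U3 copies, and how far their probes also match the other copies was not analysed here.

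Snora20 was 0.85 ± 0.22 (SE) higher in TG than in WT KLS cells, a 1.80-fold difference, and 0.27 in MEP cells, where the arrays overlapped and the value was -0.00 without TG MEP 2. Snord22 was 0.43 ± 0.17 (SE) higher in TG KLS and 0.44 ± 0.17 (SE) higher in TG MEP cells, without overlap in either, and without WT KLS 1 the KLS value was 0.26. Over both cell types Snora20 and Snord22 were 0.56 and 0.43, each with a limma adjusted p of 0.999. These were the guide RNAs with the smallest p in that contrast among those higher in TG.

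Snora44 (10508721), an H/ACA guide within Snhg12, read 10.25 and 10.15 in WT KLS and 9.62 and 9.58 in TG KLS cells, with 9.47 and 9.67 in WT MEP and 9.70 and 9.45 in TG MEP cells. WT KLS alone stood above the rest. TG minus WT was -0.59 ± 0.14 (SE) in KLS and 0.00 in MEP cells, and the difference of these, -0.60 ± 0.20 (SE), had a limma adjusted p of 1.00. Snora16a, which shares its host, was at a dim level of 4.97 to 5.56.

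Snora62, an H/ACA guide within the ribosomal protein gene Rpsa, was 0.73 ± 0.30 (SE) higher in TG KLS cells, and its WT KLS arrays read 6.76 and 5.76. The value was 1.23 without WT KLS 1 and 0.23 without WT KLS 2. Snora7a, another H/ACA guide, was -0.58 ± 0.25 (SE) in TG KLS cells with 9.20 and 9.91 on the WT arrays, and -0.93 and -0.23 without the first and the second of these. For both the difference was smaller than the gap between the WT KLS replicates.

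In MEP cells Snora41, within the translation elongation factor gene Eef1b2, was 0.63 ± 0.26 (SE) higher in TG, with 7.57 and 7.89 on WT and 8.30 and 8.42 on TG arrays. Snord16a, within Rpl4, read 8.43 and 8.41 in WT KLS, 8.61 and 8.89 in TG KLS, 8.69 and 8.74 in WT MEP, and 8.96 and 9.49 in TG MEP cells. The TG arrays were above the WT arrays in both cell types. TG minus WT was 0.51 in MEP cells, 0.24 there without TG MEP 2 and 0.77 without TG MEP 1. Snord96a, within Rack1, was 0.41 ± 0.14 (SE) higher in TG over both cell types, from 7.0 and 7.19 against 7.72 and 7.29 in KLS cells and 7.42 and 7.33 against 7.58 and 7.98 in MEP cells.

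Among RNAs of rRNA processing, Snora73b, a copy of the U17 RNA of 18S rRNA maturation within Snhg3, was 0.20 in TG against WT KLS cells and 0.22 in MEP cells. Snord118, the U8 RNA needed for 5.8S and 28S rRNA, was 0.59 in KLS and -0.30 in MEP cells. Its KLS arrays did not overlap (5.85 and 5.51 in WT, 6.5 and 6.05 in TG), while its TG MEP arrays, at 4.78 and 5.91, lay further apart than WT and TG in either cell type. The MEP value was 0.26 without TG MEP 1 and -0.87 without TG MEP 2.

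**Figure D4:**
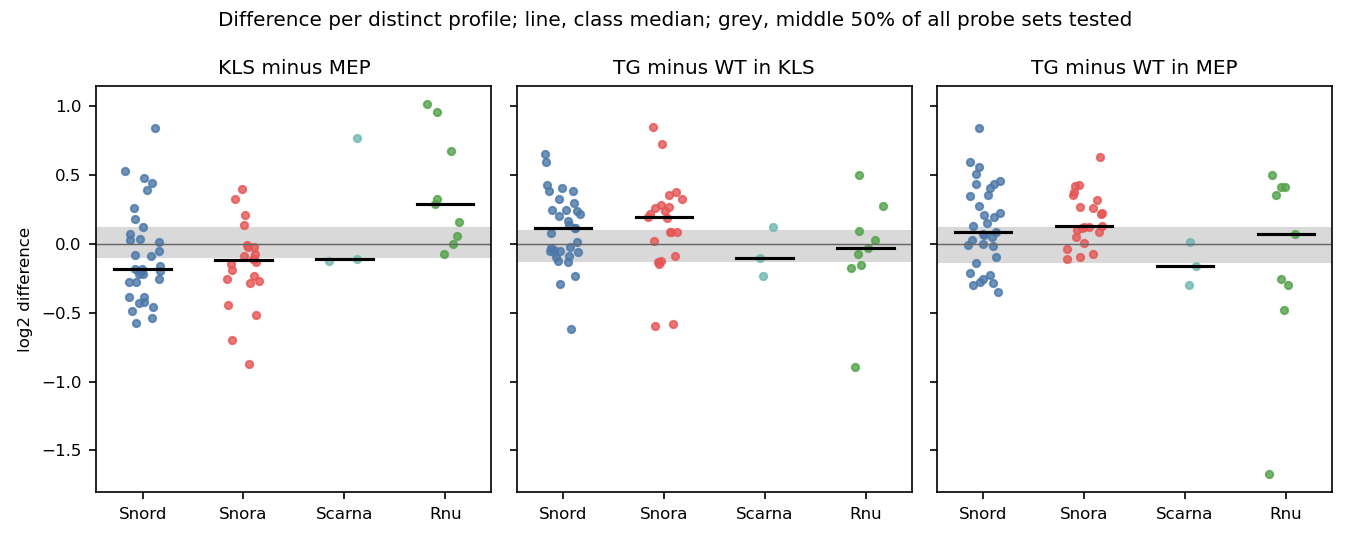
Log2 difference of each distinct profile by class in KLS minus MEP and in TG minus WT within each cell type (points, with sideways scatter for legibility only); black lines are class medians and the grey band holds the middle 50% of all probe sets tested. Rnu points lie mostly above 0 and Snora points mostly below 0 in KLS minus MEP (medians 0.29 and -0.12), and the lowest point in both TG panels is Rnu3a (-0.90 and -1.67).

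Whether the genotype difference itself differed between cell types was tested as an interaction. No member passed (0.0% of all probe sets did), and the smallest adjusted p in limma was 1.00. An unadjusted p under 0.05 was found for 3 members, or 3.75%, against 2.2% of all probe sets. These were Snord61, Snora44 and Snora7a, all with a lower difference in KLS than in MEP cells (1.14% of all probe sets), while none had a higher one (1.05%). Without TG MEP 2 there were 9 with a higher and 1 with a lower difference, or 12.5% against 6.74% of all probe sets, and with each array centred on its median there were 0. Snord61, a box C/D guide within the RNA-binding protein gene Rbmx, read 7.96 and 7.77 in WT KLS, 7.63 and 6.87 in TG KLS, 6.95 and 6.54 in WT MEP, and 7.05 and 8.13 in TG MEP cells. It was lower in TG KLS (-0.62) and higher in TG MEP cells (0.84) without overlap, as 2.15% of all probe sets were. The MEP value was 0.30 without TG MEP 2, and the KLS value -0.24 without TG KLS 2. No member had the opposite pattern (1.24%), and 3.39% of all probe sets had either. The interaction was -1.46 ± 0.54 (SE), and -0.92 without TG MEP 2. In the other direction the smallest p belonged to Snord15a within Rps3 (0.61), Snora20 (0.58), Scarna13 (0.42) and Rnu12 (0.76). Without TG MEP 1 Snora20 was 0.31 and Rnu12 0.30. Snora31, an H/ACA guide within Tpt1, had an interaction of -0.52, and of -0.18 without TG MEP 2.

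Members were set beside the host genes that hold them. A host measured by a probe set of its own was found for 32 guide genes, with 27 hosts between them. Snord1b and Snord1c shared a probe set and a host, so their pairs held the same values. Snord87 was set beside Mcmdc2, since the non-coding Snhg6, whose span also holds it, had no such probe set. Where a host had several such probe sets, as Rps12 (14) and Rpl23a (13) did, the one with the highest mean level was taken. Whether the probe set taken lies at the host's own locus or reads other copies of the gene was not examined. The median absolute difference in KLS minus MEP was 0.21 for the members and 0.09 for the hosts. In TG minus WT it was 0.18 and 0.06 in KLS cells and 0.20 and 0.03 in MEP cells. The member lay further from 0 than its host in 26, 27 and 28 of the 32 pairs in these 3 contrasts. Members also had wider replicate gaps than other probe sets, and hosts such as Rps12 (mean 13.09) read high on the scale. The part of either in these counts was not tested.

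Member and host had the same sign in 23, 19 and 21 of the 32 pairs in the same order of contrasts. Pearson's r across the pairs was 0.09 in KLS minus MEP, -0.21 in TG minus WT in KLS and 0.02 in MEP cells, given as a description since the pairs share arrays and some share a host. Tcp1, the host of Snora20, was -0.18 in KLS minus MEP where Snora20 was -0.87, and 0.12 in TG minus WT in KLS where Snora20 was 0.85. Rpl23a was -0.03 where Snord42a and Snord42b were -0.42 and -0.57. Rbmx was 0.32 in TG minus WT in KLS cells, where Snord61 was -0.62.

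**Figure D5:**
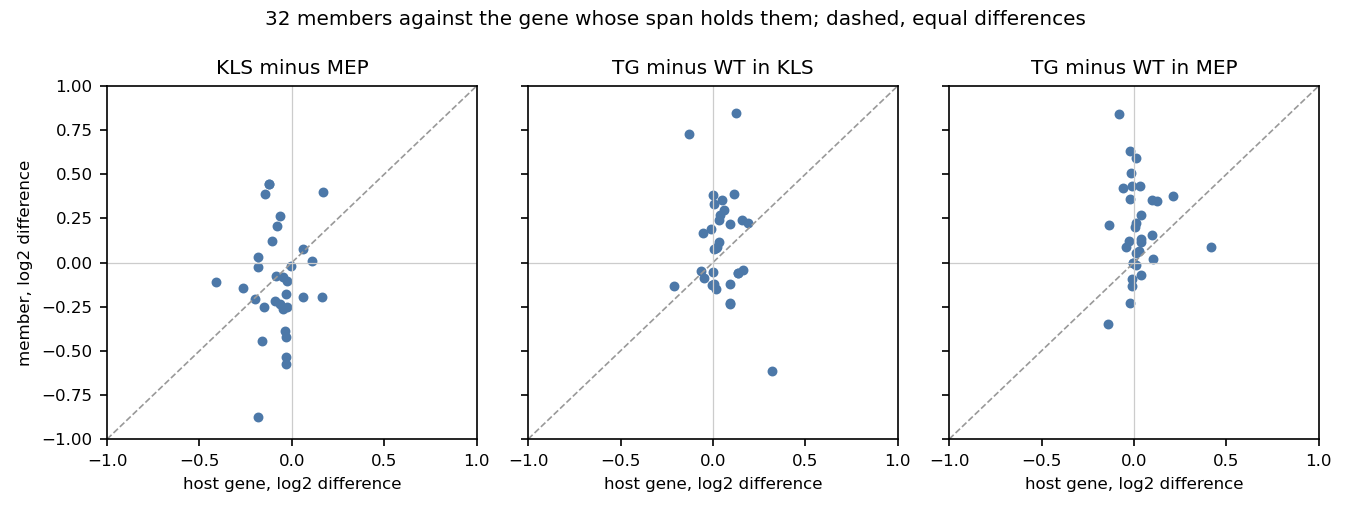
Log2 difference of 32 guide RNA genes (vertical axis) against that of the gene whose span holds them (horizontal axis) in 3 contrasts. The dashed line marks equal differences, and the points of Snord1b and Snord1c coincide. The points stand in a tall, narrow cloud around 0 on the horizontal axis, with median absolute differences of 0.21 against 0.09, 0.18 against 0.06 and 0.20 against 0.03.

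The proteins that work with these RNAs gave no call either. The 4 core proteins of box C/D particles are the methyltransferase Fbl with Nop56, Nop58 and Snu13, and the 4 of H/ACA particles are the pseudouridine synthase Dkc1 with Gar1, Nhp2 and Nop10. None of these 8 genes, of 14 assembly factors, of 22 of 24 spliceosomal and SMN complex proteins or of 17 genes of snRNA transcription and processing passed in limma in any contrast. Median differences in KLS minus MEP were -0.10 for the C/D core, -0.05 for the H/ACA core, -0.09 for assembly, -0.07 for the spliceosomal list and -0.06 for snRNA processing, against 0.01 over all probe sets. At an unadjusted p under 0.05 in that contrast there were 0, 0, 3, 4 and 3 genes in these lists, of which all but 1 spliceosomal gene were lower in KLS cells. The lists hold 4, 4, 14, 22 and 17 measured genes, and over all probe sets the share was 13.3%, with 5.83% lower.

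The smallest p in these lists belonged to Ints8, a subunit of the Integrator complex that cuts the 3′ ends of snRNAs, at -0.51 ± 0.10 (SE) in KLS minus MEP with a limma adjusted p of 0.0889. It read 8.82 to 9.23 on KLS and 9.51 to 9.60 on MEP arrays, without overlap. Shq1, an assembly chaperone of Dkc1, was -0.43 with an adjusted p of 0.140, and Ddx20 of the SMN complex was -0.37 with one of 0.155. Of 16 listed non-coding host genes 5 were measured with a symbol of their own, and none passed. Gas5, the host of Snord47, was at 12.80 to 13.02 on the 8 arrays, while Snord47 ran from 10.90 to 11.46.

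Other small non-coding RNAs were read for comparison, and none of the 7 of 9 measured passed in limma, while 4 had an unadjusted p under 0.05 in KLS minus MEP, all of them higher in KLS cells, against 13.3% of all probe sets and 7.44% in that direction. Their median in KLS minus MEP was 0.38. The RNA of RNase MRP, Rmrp, which takes part in rRNA cleavage, read 8.66 and 8.41 in WT KLS, 8.15 and 8.06 in TG KLS, 7.71 and 7.88 in WT MEP, and 7.59 and 7.65 in TG MEP cells. It was 0.61 ± 0.10 (SE) higher in KLS cells without overlap, with an adjusted p of 0.0729. The RNA of RNase P, Rpph1, which trims tRNA precursors, was 1.13 ± 0.29 (SE) higher with an adjusted p of 0.146, and WT MEP 1 (10.66) was again the MEP array within the KLS range (9.97 to 11.28). In TG minus WT in KLS cells Rpph1 was -1.02. The telomerase RNA Terc, itself an H/ACA RNA, was 0.17 in KLS minus MEP.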

How the data were processed

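The authors deposited log2 values for 35556 probe sets on each of the 8 arrays, made with Affymetrix Expression Console per the submitters' processing notes. How probes were summarized and normalized is not stated in those notes, and the log2 scale was read from the values (1.71 to 14.0). Since the array medians spanned 0.11, over a limit of 0.1, the values were quantile normalized. Groups and replicate numbers came from the sample titles.

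Gene symbols came from the platform annotation: 21789 probe sets had 1 symbol, 1621 several and 12146 none listed here. One linear model with a mean for each of the 4 groups was fitted to each of the 23410 probe sets with a symbol, using lmFit, contrasts.fit and eBayes of limma 3.58.1 in R 4.3.3. Tests were two-sided with Benjamini-Hochberg adjustment over all of them, and a probe set passed at an adjusted p under 0.05. The residual degrees of freedom were 4 and the prior degrees of freedom 3.46. The procedure was tested on simulated data. The small number of arrays limits the precision, and p-values measure the spread between these pools.

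A host was any gene of the RefSeq table whose span holds the member; strand was not used, since the table has none. All 68 genes matched the RefSeq table, and sequences are RefSeq's (GRCm38.p6). Members of the list, the protein lists and the markers were chosen with earlier results of these data known. The genes named are the members with the smallest p in each contrast and direction (4 each), the 3 brightest of each class, the Scarna and Rnu members, the 3 with the widest replicate gap, the genes of a list with the smallest p, and hosts of these. Snora16a, Snora73b, Snord42a, Snord49b, Snord53, Snord73a and Snord118, the particle core proteins, Gas5 and Terc were named after their values were seen. Results were recomputed from the deposited values unchanged or median-centred, over all probe sets or without dim ones, with array weights, with robust or intensity-dependent variances, with a block for the replicate number, within 1 cell type, and with each array left out. Counting identical members once was added after the data were seen.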

Additional observations from a re-analysis of the deposited data

Results flagged for a closer look

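The mean of the Snora members on TG MEP 2 was 8.88, and its distance from the other 3 MEP arrays was a larger share of the range than Dixon's 95% critical value for 4 samples. This was 1 of 10 such groups of values examined, and chance marks about 1 in 20.

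Snord61 was lower in both TG KLS arrays and higher in both TG MEP arrays than in the WT arrays of the same cell type. The difference between the 2 genotype effects was -1.46, and its test as an interaction in limma had an adjusted p of 1.00.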

How the results depend on the processing

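In KLS minus MEP, the 72 probe sets called became 41 with the values as deposited, 1 with median centring, 1 with all probe sets of the table and 125 with the replicate number as a block, and 1 to 477 with 1 array left out (477 without WT MEP 1). Called members numbered 1 with an intensity trend (Snord104, adjusted p 0.0338), 1 with the replicate block (Rnu3a, adjusted p 0.0309) and 0 to 4 with 1 array left out, the 4 Rnu3b probe sets without WT MEP 1. Probe sets called in TG minus WT numbered 0 to 31 in MEP cells and 0 to 9 over both cell types with 1 array left out, each highest without WT MEP 2. Same-numbered arrays did not deviate together throughout. The correlation of replicate differences was 0.53 for WT KLS with TG KLS, and 0.22 and 0.35 for these with WT MEP. It was -0.41, -0.53 and -0.23 for TG MEP with WT KLS, TG KLS and WT MEP, so the numbers were not taken as pairs. Whether the groups share a deviation under another numbering was not tested. The causes of the shifts in the counts were not tested. Of 1030 alternative values for 63 differences of single members, 1002 kept their direction and their side of the threshold, 3 passed in addition (those of Snord104, Rnu3a and Rnu3b above) and 25 turned sign, all of values that had not passed. With the values as deposited Rnu3b was 0.0067 in TG minus WT in KLS and Snora44 -0.065 in MEP cells. With median centring Rnu3b was 0.037, Snora44 -0.092 and 1 U1 profile -0.0204 in KLS minus MEP. With 1 array left out, the U1 profiles ran from -0.011 to 0.33, -0.13 to 0.13 and -0.0900 to 0.20, Rnu5g from -0.016 to 0.59, Rnu6 from -0.16 to 0.012 and Scarna8 from -0.29 to 0.063 in KLS minus MEP. Rnu3b ran from -0.32 to 0.17 in TG minus WT in KLS and from -1.15 to 0.19 in MEP cells, where Snora44 ran from -0.12 to 0.13, Snord118 from -0.87 to 0.26 and Snora20 from -0.0012 to 0.54. Of 256 alternative counts and medians 239 stayed within 1.5 times or the replicate spread and 17 did not, and the members' median over both cell types was -0.03 without TG MEP 2. With 2 arrays a group, differences of the size of the replicate gaps of the members could not be told from 0, and adjusted p near 1 show no equality.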
